A study of Mus musculus with 12 samples.

Results

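Expression of 48 nuclear genes that encode subunits of the mitochondrial respiratory chain was described in macrophages grown from mouse bone marrow. The members were taken from a list of gene symbols and matched to the Ensembl identifiers of the count table. They were 34 subunits of complex I, 5 of complex III, 8 of complex IV (with Ndufa4 among them) and cytochrome c (Cycs), out of 55891 genes in the table. All 48 were found, and all 48 were among the 13525 genes with enough counts to be tested. Marrow cells were differentiated in M-CSF (10 ng/mL, 6 days), which drives their progenitors into the macrophage lineage. They were then left as they were (control), given 100 ng/mL LPS, a bacterial cell wall component, with 10 ng/mL IFNγ for 24 h (M1 in the labels), or given 20 ng/mL IL-4 for 24 h (M2 in the labels). Each treatment was applied to cells labelled wild type (WT) and to cells labelled as Ptprz1 knockout (KO), which gave 6 groups of 2 libraries. Titles of the WT samples begin with B6, whereas the strain field reads B6.129-Ptprz1tm1Nmo, the targeted strain, for all 12 samples. The labels do not say whether the libraries of a group came from separate mice or cultures, so every p-value below measures only the spread between these libraries, which may be technical.

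The respiratory chain of the inner mitochondrial membrane passes electrons from NADH and succinate to oxygen and pumps protons for the ATP synthase. Complex I takes electrons from NADH through flavin and iron-sulfur core subunits in its matrix arm, while most of its accessory subunits surround the membrane arm. Complex III hands the electrons to cytochrome c, and complex IV, cytochrome c oxidase, passes them to oxygen. Complexes I, III and IV mix proteins made from nuclear genes, the ones described here, with others made inside the mitochondrion from its own genome. In macrophages, stimulation with LPS and IFNγ is known to shift energy metabolism toward glycolysis, and IL-4 is known for sustained mitochondrial respiration. Nuclear respiratory factor NRF1 and the ETS protein GABP are known transcription factors of many of these genes.

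Promoters of the members were searched for core letters of those factors' motifs. RefSeq promoter entries (GRCm38.p6) were found for 42 of the 48 members, 44 entries in all, and shares are given over entries. The NRF1 letters CATGCGC occurred on either strand in 9 of the 44 (20.5%), and in 3.91% of all 32851 entries of the same length. The ETS letters CCGGAAG occurred on either strand in 8 of 44 (18.2%), against 8.86% of all entries. At least 1 of these was present in 15 of 44 (34.1%), against 12.1%, and Ndufb6 and Cox6a1 held both. Parts of 4 promoters are shown, those of Cycs, Ndufa11, Uqcrh and Cox6a1. These genes carry the NRF1 letters, the ETS letters or both before the start, as other members do, and are described below. The stretches were chosen to hold few bases of an annotated exon. Capitals mark the motif letters on either strand, with overlapping copies joined, and each stretch is written 5′ to 3′ on the strand of its gene.
Cycs: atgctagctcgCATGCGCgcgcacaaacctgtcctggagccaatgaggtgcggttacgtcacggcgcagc
Ndufa11: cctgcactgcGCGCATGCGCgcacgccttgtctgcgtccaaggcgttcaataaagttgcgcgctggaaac
Uqcrh: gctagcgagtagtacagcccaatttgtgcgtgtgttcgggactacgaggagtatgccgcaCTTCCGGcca
Cox6a1: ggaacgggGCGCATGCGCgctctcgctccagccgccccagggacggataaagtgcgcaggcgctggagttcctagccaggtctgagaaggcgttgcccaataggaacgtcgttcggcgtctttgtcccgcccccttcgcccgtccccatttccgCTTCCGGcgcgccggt

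The Cycs stretch lies at chr6:50566570-50566639 on the minus strand, with the NRF1 letters starting 59 bases before the annotated transcription start. The Ndufa11 stretch is chr17:56717692-56717761 on the plus strand, and its NRF1 letters read on both strands, from 60 and 57 bases before the start. The Uqcrh stretch is chr4:116075071-116075140 on the minus strand, with ETS letters 10 bases before the start. In Cox6a1, at chr5:115348959-115349128 on the minus strand, NRF1 letters began 162 and 159 bases and ETS letters 16 bases before the start. Starts here are those of the RefSeq entries. The GENCODE annotation begins Cox6a1 further upstream, at 115348981, so these ETS letters lie inside the gene as annotated there. A match of letters is a description of the sequence, and no binding was measured here.

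Total counts per library ran from 13665607 to 19555600, with the shallowest in KO LPS+IFNγ library 2. Summed macrophage markers were at 9006 to 20427 CPM (counts scaled to a common library size, here with TMM factors), with the lowest values after IL-4 (9006 to 10680 CPM). The LPS+IFNγ response genes Nos2, Il12b and Cxcl9 summed to at least 6007 CPM in every LPS+IFNγ library and to at most 0.273 CPM elsewhere. The IL-4 response genes Arg1, Retnla and Chil3 summed to 1863 to 2337 CPM after IL-4 and to 2.44 to 5.96 CPM in control. After LPS+IFNγ they summed to 152 to 567 CPM, nearly all from Arg1. Ptprz1 itself had 0 counts in 11 of the 12 libraries, so it does not check the genotype labels. Granulocyte markers summed to between 25.6 and 221 CPM after LPS+IFNγ, nearly all from S100a8 there, and to at most 13.4 CPM elsewhere, and Ly6g was at 0 in every library. Erythroid markers summed to 18.2 to 46.0 CPM after LPS+IFNγ and to 49.4 to 93.6 CPM in controls, and stromal markers to 273 to 1350 CPM in KO and 45.1 to 348 CPM in WT libraries. In each of the 6 groups the stromal sum was higher in library 2 (177 to 1350 CPM) than in library 1 (45.1 to 352 CPM). The part of these other cell types in the results below was not tested, and in bulk RNA fewer cells of a type and less RNA per cell cannot be told apart.

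All members were expressed, from 3.73 CPM for Ndufb4 to 394 CPM for Cox4i1 over the 12 libraries. Per kilobase of transcript, complex IV stood highest in WT control cells, with a median of 141 CPM per kb over its 8 members, from 70.4 for Cox7a2 to 339 for Cox4i1. Complex I had a median of 38.3 CPM per kb, from 5.57 for Ndufb2 to 97.3 for Ndufb8. The median of complex III was 44.4 CPM per kb, from 40.0 for Uqcrq to 102 for Uqcrh, the hinge subunit that helps dock cytochrome c. Cycs, the mobile electron carrier, was at 11.7 CPM per kb. Ndufb2 and Cycs have long annotated transcripts, so their values per kb depend on which 3′ end the cells use. The median over complex IV was above that over complexes I and III in each of the 12 libraries, as the medians of single libraries ran from 137 to 200 CPM per kb for complex IV, from 46.9 to 70.7 for complex III and from 36.5 to 53.6 for complex I.

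**Figure D1:**
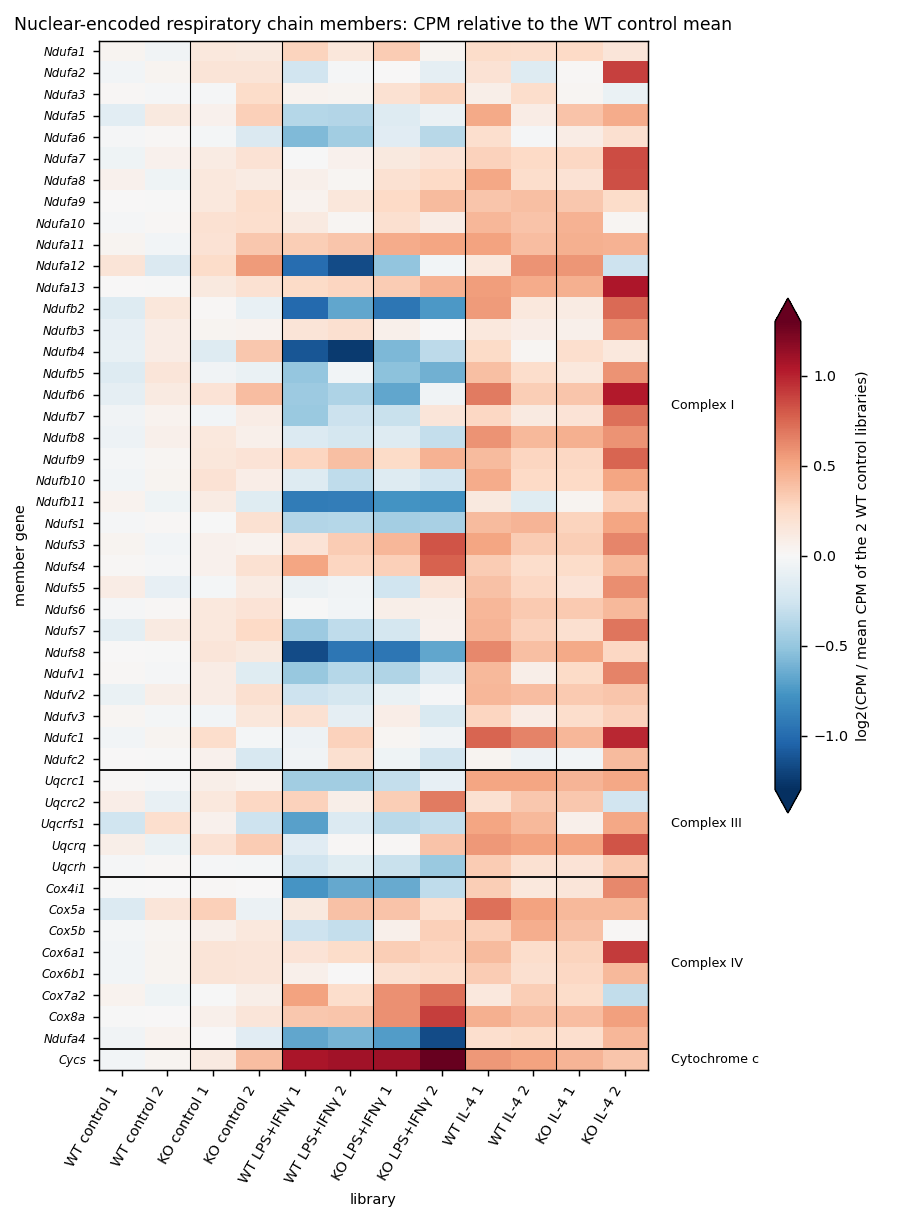
Heat map of the 48 members (rows, grouped by complex) in the 12 libraries (columns, grouped by treatment and genotype). Color gives the log2 ratio of CPM to the mean of the 2 WT control libraries of that gene. The IL-4 columns are mostly above control, and the LPS+IFNγ columns hold both the lowest rows, such as Ndufs8, and the highest, Cycs.

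After IL-4, single members of complexes I, III and IV rose in WT cells, and of complexes I and III in KO cells. In WT cells 9 of 48 members rose and 0 fell at an adjusted p below 0.05 (edgeR's quasi-likelihood test, Benjamini-Hochberg over all genes tested). That is 18.8% of the members, where 4.92% of all tested genes rose, 4.12% fell and 9.04% were called in all. In KO cells 3 of 48 members rose (6.25%) and 0 fell, where 3.52% of all genes rose, 3.34% fell and 6.86% were called in all. The fitted difference was positive for 46 members in WT and 44 in KO, with medians of 0.35 and 0.29 on the log2 scale beside medians of -0.02 and 0.00 over all tested genes. With library totals alone in place of TMM factors, 45 members were positive in WT. Only 2 members (4.17%) were then called there, where 8.78% of all tested genes were. No direct test of the difference between the genotypes was passed by any member, as given further below.

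Uqcrc1, a core protein of complex III (ENSMUSG00000025651, chromosome 9, 108936633 to 108949623, GRCm38), showed the smallest p in both genotypes. Its WT control libraries had 129 and 127 CPM, its KO controls 135 and 132 CPM, and its IL-4 libraries 184 and 183 CPM (WT) and 174 and 182 CPM (KO). All 4 IL-4 libraries lay above all 4 controls, and the rise was 0.52 ± 0.09 (log2 fold change ± SE) in WT and 0.41 ± 0.09 in KO, with adjusted p of 0.0113 and 0.0317 in edgeR's quasi-likelihood test. Ndufb8, an accessory subunit of the membrane arm of complex I (chromosome 19, 44548572 to 44555440), was the other member called in both genotypes. Its control libraries were at 63.2 and 69.2 (WT) and 72.5 and 69.2 CPM (KO), and its IL-4 libraries at 98.9 and 88.7 (WT) and 91.1 and 99.1 CPM (KO). The values did not overlap, and Ndufb8 rose by 0.50 ± 0.10 in WT and 0.42 ± 0.10 in KO (edgeR adjusted p 0.0189 and 0.0406). With library totals alone Uqcrc1 was still called in both genotypes and Ndufb8 in WT, while Ndufb8 in KO was at 0.41 and no longer called.

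The other 7 members that rose in WT came from complexes I and IV. In complex I they were the core iron-sulfur subunits Ndufs1 (0.43 ± 0.10, edgeR adjusted p 0.0359) and Ndufv2 (0.42 ± 0.09, 0.027), and the accessory subunits Ndufa11 (0.46 ± 0.11, 0.032), Ndufs6 (0.39 ± 0.10, 0.0418) and Ndufa9 (0.37 ± 0.10, 0.0416). In complex IV they were Cox5a (0.63 ± 0.16, edgeR adjusted p 0.0453) and Cox8a (0.43 ± 0.11, 0.0463), both small subunits that surround the catalytic core. With library totals alone all 7 stayed positive and were no longer called. In KO cells the third member called was Ndufa13, an accessory subunit also known as GRIM-19, at 0.63 ± 0.16 (edgeR adjusted p 0.0497). With library totals alone Ndufa13 was at 0.61 and not called. Its KO IL-4 libraries stood apart, at 72.8 and 109 CPM, and without the second of them it was no longer called. The rise of Ndufc1 in WT, 0.70 ± 0.20, was the largest in size and did not pass (edgeR adjusted p 0.0557). Uqcrfs1, the Rieske iron-sulfur protein, lay nearest to the complex III median at 0.47 ± 0.22 in WT and 0.40 ± 0.22 in KO, and did not pass in either (0.222 and 0.307). Ndufc2 (-0.02) and Ndufb11 (-0.01) were the 2 members of 48 below 0 in WT.

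With both genotypes pooled as 4 libraries against 4, the values of 27 members after IL-4 lay wholly above those of the controls (56.2%), and 0 lay wholly below. Among all tested genes 13.5% lay wholly above and 13.4% wholly below. The 27 were 18 of 34 in complex I, 3 of 5 in complex III and 6 of 8 in complex IV. Summed over all members, expression was 2343 to 2547 CPM in the 4 control libraries and 2895 to 3361 CPM in the 4 IL-4 libraries, which did not overlap. The medians of the fitted differences were 0.35, 0.47 and 0.29 for complexes I, III and IV in WT and 0.27, 0.40 and 0.33 in KO, and differences between complexes were not tested. The single calls rested on all the libraries: with any 1 of the 4 WT libraries left out, 0 members were called, while 1.24% to 1.99% of all genes were and 44 to 48 members had a positive difference. In KO the calls also depended on which library was left out, and 42 to 46 members had a positive difference, with medians of 0.17 to 0.42.

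**Figure D2:**
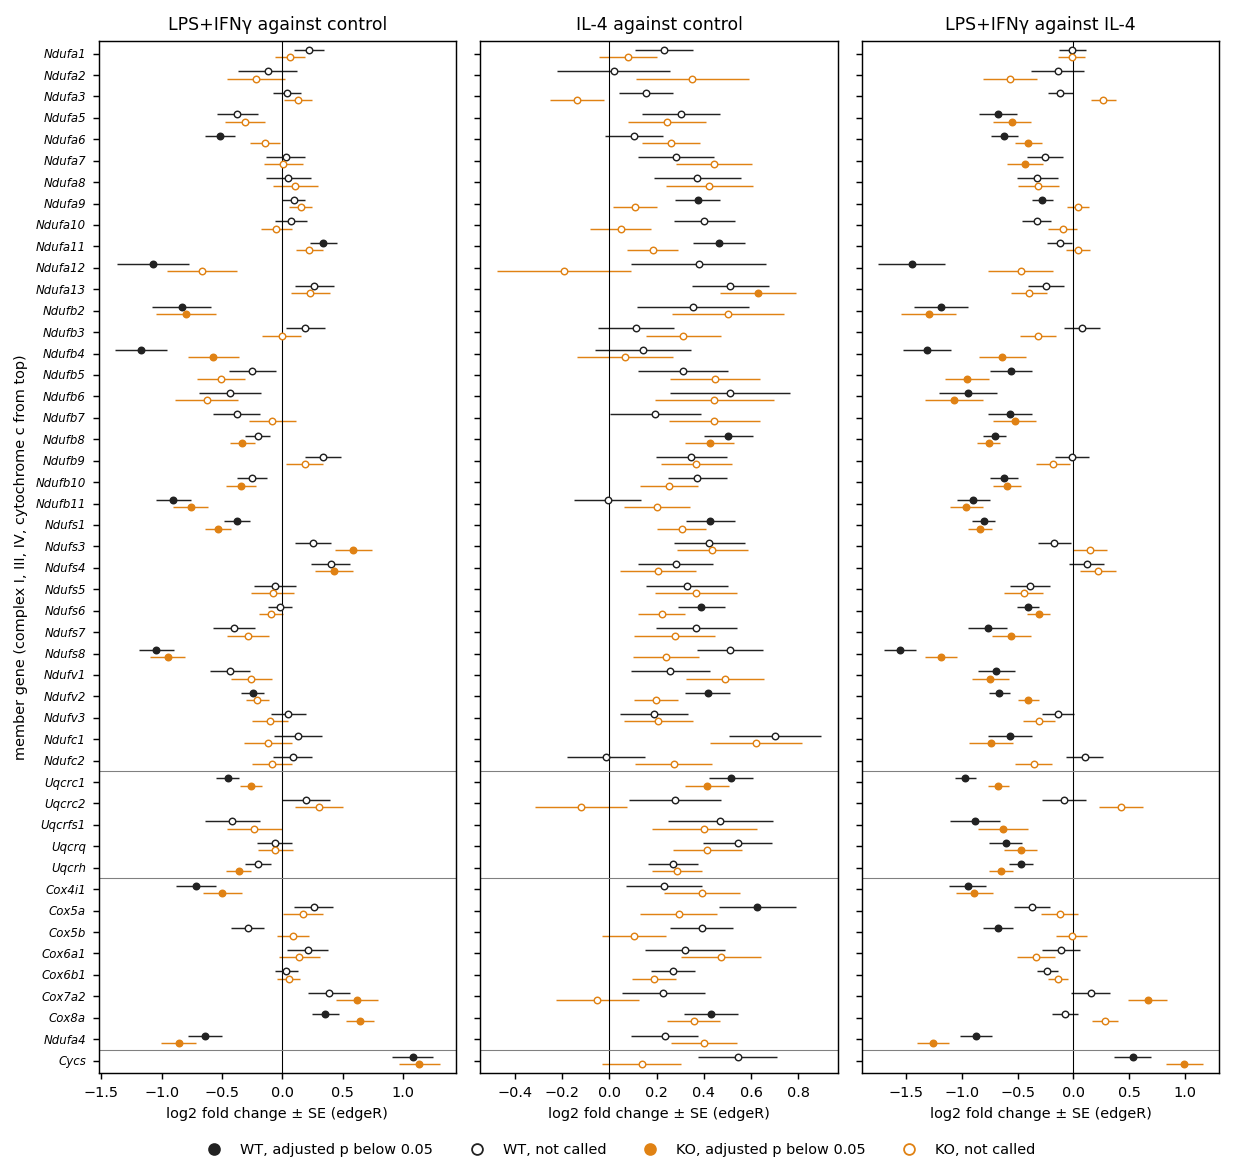
Log2 fold change of each member from control for both stimuli, and of LPS+IFNγ against IL-4 in the last panel. Both genotypes are shown, grouped by complex, with standard errors as bars. Filled points passed an adjusted p of 0.05 and open points did not. Against control, IL-4 values lie mostly between 0 and 0.70, and LPS+IFNγ values spread from -1.17 for Ndufb4 to 1.13 for Cycs. In the last panel values run from -1.56 for Ndufs8 to 1.0 for Cycs.

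LPS with IFNγ moved single members in both directions and left the median over the members close to that over all genes. In WT cells 3 of 48 members rose and 11 fell (29.2% called), where 27.4% of all tested genes rose and 27% fell. In KO cells 5 rose and 11 fell (33.3% called), where 27.2% rose and 26.1% fell. With TMM factors the share of members called was thus below that of all tested genes, 54.3% in WT and 53.3% in KO. Median fitted differences of the members were -0.06 in WT and -0.09 in KO, beside -0.05 and -0.01 over all genes. Called in both genotypes were Cycs and Cox8a, which rose, and Ndufb2, Ndufb4, Ndufb11, Ndufs1, Ndufs8, Uqcrc1, Cox4i1 and Ndufa4, which fell. With library totals alone Cox8a turned negative in WT and was called in neither genotype. These directions depend in part on how libraries are scaled. With library totals alone in place of TMM, the median of all genes moved to -0.55 in WT and -0.51 in KO, and 31 and 36 members were called lower with 1 higher, Cycs, in each genotype. The share of members called was then above that of all tested genes, at 66.7% against 60.8% in WT and 77.1% against 59.4% in KO. With upper-quartile factors 1 member rose and 20 fell in WT, and 3 rose and 19 fell in KO. The shares called were then 43.8% against 54.5% of all tested genes in WT and 45.8% against 53.5% in KO. The members' share of all counts was 0.270% to 0.281% in control, 0.175% to 0.195% after LPS+IFNγ and 0.317% to 0.368% after IL-4.

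Cycs (ENSMUSG00000063694, chromosome 6, 50562563 to 50566538), which also triggers cell death when it leaves the mitochondrion, rose the most. It was at 35.6 and 37.2 CPM in WT control, 39.3 and 48.2 CPM in KO control, 76.0 and 77.6 CPM in WT LPS+IFNγ, and 78.0 and 114 CPM in KO LPS+IFNγ libraries. The groups did not overlap, and the rise was 1.08 ± 0.17 in WT and 1.13 ± 0.17 in KO (edgeR adjusted p 0.000498 and 0.000379). With totals alone it was 0.58 in WT and 0.63 in KO, still called in both. After IL-4, Cycs was at 53.8 and 52.3 CPM in WT and at 49.3 and 46.9 CPM in KO libraries, and it was not called against control (0.54 ± 0.17 and 0.14 ± 0.17, edgeR adjusted p 0.0757 and 0.676).

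Cox8a, a small subunit of complex IV, was at 84.7 CPM in both WT control libraries, 89.0 and 94.3 CPM in KO control, 108 CPM in both WT LPS+IFNγ libraries and 128 and 158 CPM in KO LPS+IFNγ. It rose by 0.35 ± 0.11 in WT and by 0.64 ± 0.11 in KO (edgeR adjusted p 0.0242 and 0.00108). With library totals alone the KO difference was 0.14 and not called, and the WT difference turned to -0.14. Ndufa11 rose in WT, by 0.34 ± 0.11 (0.0265), and this also turned, to -0.16, with totals alone. Members called higher in KO only were Cox7a2 of complex IV (0.62 ± 0.18, edgeR adjusted p 0.015), the core subunit Ndufs3 (0.59 ± 0.15, 0.00901) and the accessory subunit Ndufs4 (0.43 ± 0.16, 0.0479). With totals alone these 3 were at 0.12, 0.08 and -0.08 in KO and none was called. With upper-quartile factors Cox7a2 and Ndufs4 in KO, and Cox8a and Ndufa11 in WT, were not called either. In WT, with TMM factors, Cox7a2, Ndufs3 and Ndufs4 stood at 0.38 ± 0.18, 0.25 ± 0.15 and 0.40 ± 0.16 and did not pass.

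Ndufs8 (ENSMUSG00000059734, chromosome 19, 3908863 to 3912774), a core subunit that holds iron-sulfur clusters on the way to ubiquinone, fell in both genotypes. It was at 29.4 and 29.0 (WT) and 32.7 and 31.8 CPM (KO) in control libraries, and at 13 and 15.2 (WT) and 15.2 and 18.3 CPM (KO) after LPS+IFNγ. No LPS+IFNγ library came near a control, and the difference was -1.05 ± 0.14 in WT and -0.95 ± 0.14 in KO (edgeR adjusted p 0.000228 and 0.000446). Ndufs1, the largest core subunit, was at 77.8 and 79.1 (WT) and 78.3 and 89.7 CPM (KO) in control, and at 60.1 and 60.6 (WT) and 57.7 and 58.6 CPM (KO) after LPS+IFNγ. It fell by 0.38 ± 0.11 in WT and 0.53 ± 0.11 in KO (edgeR adjusted p 0.013 and 0.00216). Ndufv1, the core subunit that binds NADH, was at -0.43 ± 0.17 in WT and -0.26 ± 0.17 in KO and did not pass (0.0523 and 0.228).

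Among accessory subunits of the membrane arm, Ndufb11 had control libraries at 39.4 and 36.7 (WT) and 40.8 and 34.1 CPM (KO) and LPS+IFNγ libraries at 20.2 and 20.4 (WT) and 22.2 and 22.1 CPM (KO). It fell by 0.90 ± 0.14 in WT and by 0.76 ± 0.14 in KO (edgeR adjusted p 0.000553 and 0.0017). Ndufb4 fell by 1.17 ± 0.22 in WT and by 0.57 ± 0.21 in KO (0.00132 and 0.0438), at 3.73 to 6.97 CPM after LPS+IFNγ and 7.83 to 11.2 CPM in control. Ndufb2 fell by 0.83 ± 0.25 and 0.80 ± 0.25 (0.0171 and 0.0226). In the matrix arm Ndufa12 (-1.07 ± 0.30, edgeR adjusted p 0.0129), Ndufa6 (-0.51 ± 0.12, 0.00637) and the core subunit Ndufv2 (-0.25 ± 0.09, 0.0499) were called lower in WT only. In the membrane arm Ndufb8 (-0.33 ± 0.10, 0.0215) and Ndufb10 (-0.34 ± 0.12, 0.0416) were called lower in KO only.

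In complex III, Uqcrc1 was at 93.6 and 93.7 CPM (WT) and 104 and 119 CPM (KO) after LPS+IFNγ, all below the controls. It fell by 0.45 ± 0.09 in WT and 0.26 ± 0.09 in KO (edgeR adjusted p 0.00253 and 0.0391), and Uqcrh fell in KO by 0.36 ± 0.11 (0.0173). Uqcrfs1 was at -0.41 ± 0.22 and -0.23 ± 0.22 and did not pass (0.148 and 0.418).

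Cox4i1 (ENSMUSG00000031818, chromosome 8, 120668222 to 120674207), a regulatory subunit of complex IV and the member with the highest level, was at 254 and 258 CPM in WT control and 260 and 257 CPM in KO control. After LPS+IFNγ it was at 151 and 161 CPM in WT and 163 and 204 CPM in KO, and after IL-4 at 319 and 282 CPM in WT and 285 and 394 CPM in KO. The 3 treatments did not overlap, but only the fall after LPS+IFNγ passed the test, at -0.72 ± 0.16 in WT and -0.50 ± 0.16 in KO (edgeR adjusted p 0.00457 and 0.028), while the IL-4 differences of 0.23 ± 0.16 and 0.39 ± 0.16 did not (0.42 and 0.176). The messages of the complex IV subunits therefore did not keep their proportions after LPS+IFNγ, and proteins were not measured. Per kilobase, the ratio of Cox8a to Cox4i1 was 0.925 to 1.08 in the 4 LPS+IFNγ libraries and 0.428 to 0.542 in the other 8. The ratio of Cox7a2 to Cox4i1 was 0.387 to 0.508 against 0.108 to 0.235. That of Cycs, which is not a subunit of complex IV, to Cox4i1 was 0.116 to 0.136 against 0.0288 to 0.0453. Within the matrix arm of complex I, the ratio of Ndufs8 to Ndufs4 was 0.712 to 0.977 after LPS+IFNγ and 2.04 to 2.79 in the other 8 libraries. Ratios within a library do not depend on its scaling. They draw on the same members and libraries as the differences above and are not independent of them.

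By complex, median differences after LPS+IFNγ in WT and KO were -0.09 and -0.11 for complex I, -0.20 and -0.23 for complex III, and 0.12 and 0.11 for complex IV, the last turning to -0.38 and -0.39 with library totals alone and to -0.06 and -0.08 with upper-quartile scaling. The 6 core subunits of complex I among the members had medians of -0.39 in WT (3 called lower, 0 higher) and -0.27 in KO (2 lower, 1 higher). The 28 accessory subunits had medians of 0.00 and -0.09, with 5 called lower and 1 higher in each genotype. By arm, the 15 members of the matrix arm had medians of -0.25 and -0.21, and the 19 of the membrane arm 0.04 and -0.08. With the genotypes pooled, 12 members lay wholly below the controls (25%) and 8 wholly above (16.7%), where 30% and 30.8% of all genes did. The 8 above were Ndufa13, Ndufb9, Ndufs3, Ndufs4, Cox6a1, Cox7a2, Cox8a and Cycs. With any 1 of the 4 libraries of a comparison left out, fewer members and fewer of all tested genes were called in both genotypes. The median over the members was then -0.12 to -0.04 in WT and -0.13 to -0.06 in KO. Called in every such removal were Ndufb4, Ndufb11, Ndufs8, Uqcrc1, Cox4i1, Ndufa4 and Cycs in WT, and Ndufb11, Ndufs1, Ndufs8, Cox8a, Ndufa4 and Cycs in KO.

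**Figure D3:**
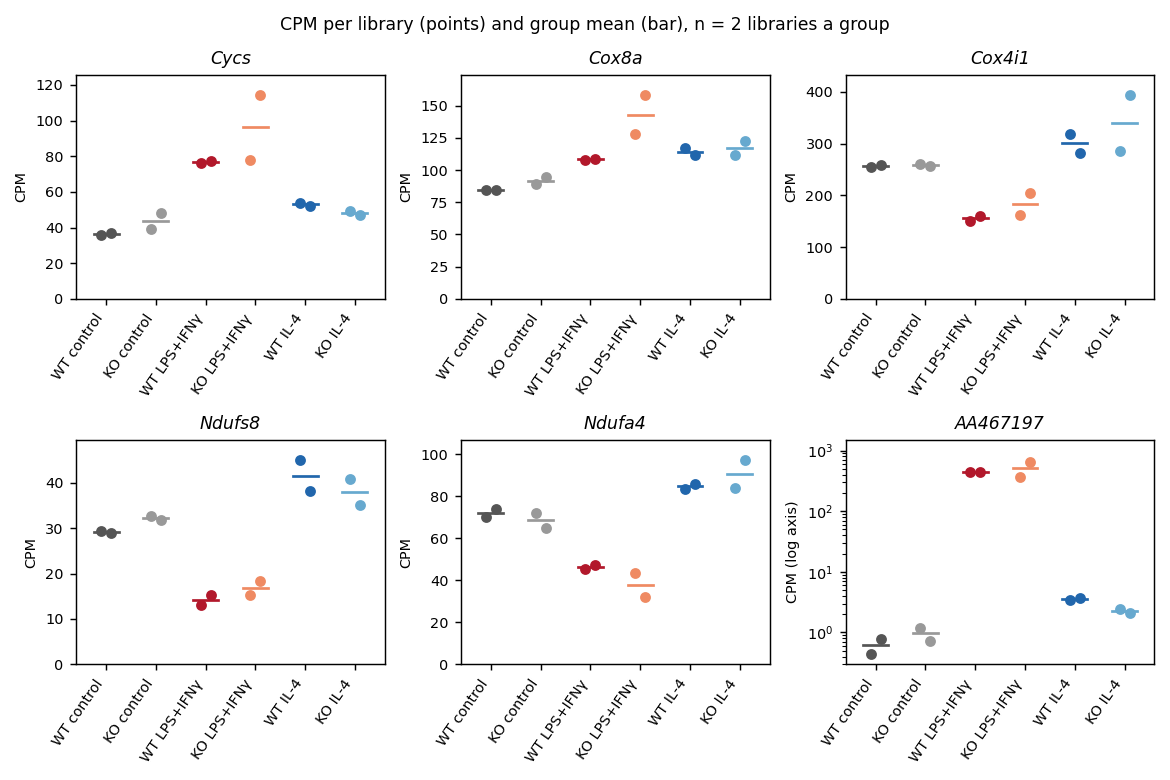
CPM of Cycs, Cox8a, Cox4i1, Ndufs8, Ndufa4 and AA467197 in each library (points) with the mean of the 2 libraries of a group (bar); all axes start at 0 except that of AA467197, which is logarithmic. Cycs is highest after LPS+IFNγ, Ndufs8, Cox4i1 and Ndufa4 are lowest there, and AA467197 goes from at most 1.2 CPM in control to at least 359 CPM after LPS+IFNγ.

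Ndufa4 (ENSMUSG00000029632, chromosome 6, 11900292 to 11907497), named for complex I and since assigned to complex IV, has a relative, AA467197 (ENSMUSG00000033213, chromosome 2, 122636986 to 122641191), whose protein can take its place in complex IV. Ndufa4 was at 69.9 and 74.1 (WT) and 72.2 and 65.1 CPM (KO) in control and at 45.2 and 47.4 (WT) and 43.4 and 32.1 CPM (KO) after LPS+IFNγ. It fell by 0.64 ± 0.14 in WT and by 0.86 ± 0.14 in KO (edgeR adjusted p 0.00404 and 0.000782). AA467197 was at 0.437 and 0.788 (WT) and 1.2 and 0.731 CPM (KO) in control and at 451 and 435 (WT) and 359 and 657 CPM (KO) after LPS+IFNγ. It rose by 9.48 ± 0.40 in WT and 9.02 ± 0.38 in KO (edgeR adjusted p 2.95e-07 and 3.29e-07). Per kilobase, AA467197 exceeded Ndufa4 by 5.69 to 14.1 times in the LPS+IFNγ libraries and was at 0.00430 to 0.0292 of it in all others. After IL-4, Ndufa4 was at 83.6 and 85.8 (WT) and 84.0 and 97.2 CPM (KO), not called against control, and AA467197 reached 2.08 to 3.63 CPM, called in WT (2.51 ± 0.42, 0.00837) and not in KO (1.2 ± 0.41, 0.11). Of the other relatives of members, Cox7a2l, which takes part in joining complexes III and IV, fell by 0.90 ± 0.12 and 0.72 ± 0.12 after LPS+IFNγ (edgeR adjusted p 0.000191 and 0.000823). Cox4i2, Cox8b, Cox8c and Cyct did not have enough counts to be tested.

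In the direct comparison of LPS+IFNγ with IL-4, the members called were nearly all lower after LPS+IFNγ. In WT, 26 of 48 were lower and 1 higher (56.2% called), where 28.1% of all genes were lower and 28.1% higher (56.2%). In KO, 24 were lower and 2 higher (54.2% called), where 28.1% and 26.7% of all genes were (54.9%). The share called was therefore near that of all genes, and the members differed in direction. Medians were -0.44 in WT and -0.42 in KO beside -0.03 and -0.07 over all genes, and 23 members were called lower in both genotypes. By complex the medians were -0.48 and -0.44 for I, -0.61 and -0.63 for III, and -0.30 and -0.13 for IV in WT and KO. This comparison and both comparisons with control draw on the same libraries, so the 3 are not independent.

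Ndufs8 showed the largest difference in WT, -1.56 ± 0.15 (edgeR adjusted p 1.7e-05), with IL-4 libraries at 45.0 and 38.2 CPM and LPS+IFNγ libraries at 13 and 15.2 CPM. In KO it was -1.19 ± 0.15 (0.000101). Uqcrc1 differed by -0.97 ± 0.09 in WT and -0.67 ± 0.09 in KO (edgeR adjusted p 2.07e-05 and 0.000226), and Ndufa4 by -0.87 ± 0.14 and -1.26 ± 0.14 (0.000606 and 6.85e-05). Cycs was higher after LPS+IFNγ than after IL-4 in both genotypes (0.53 ± 0.17 and 1.0 ± 0.17, 0.0212 and 0.000766), though with library totals alone its WT difference was 0.10 and not called. With the genotypes pooled, 26 members were wholly lower after LPS+IFNγ (54.2%, all genes 31.3%), and Cycs was the single member wholly higher (all genes 30.3%). With 1 library left out, the median over the members was -0.51 to -0.38 in WT and -0.61 to -0.27 in KO. The members called changed with the library left out, in KO to both fewer and more.

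Other genes of the pathway were read from lists. The 13 protein genes of the mitochondrial genome, which encode membrane subunits of complexes I, III and IV and of the ATP synthase, summed to 21062 to 30611 CPM in control, 10261 to 14203 CPM after LPS+IFNγ and 12034 to 24671 CPM after IL-4. After LPS+IFNγ 6 of them fell in WT and 7 in KO and 0 rose (medians -1.18 and -1.15), where 27% and 26.1% of all tested genes fell; mt-Nd1 fell by 1.90 ± 0.33 and 1.61 ± 0.33 (edgeR adjusted p 0.000999 and 0.00254). With library totals alone all 13 fell in each genotype. After IL-4 0 of the 13 were called in either genotype. The ratio of summed nuclear members to summed mitochondrially encoded genes was 0.0832 to 0.114 in control, 0.161 to 0.218 after LPS+IFNγ and 0.117 to 0.279 after IL-4, so nuclear and mitochondrial subunit messages did not move in proportion. How well each library captured mitochondrial transcripts was not measured, and KO IL-4 library 2 had 1.32% of its counts from them against 2.70% in library 1.

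**Figure D4:**
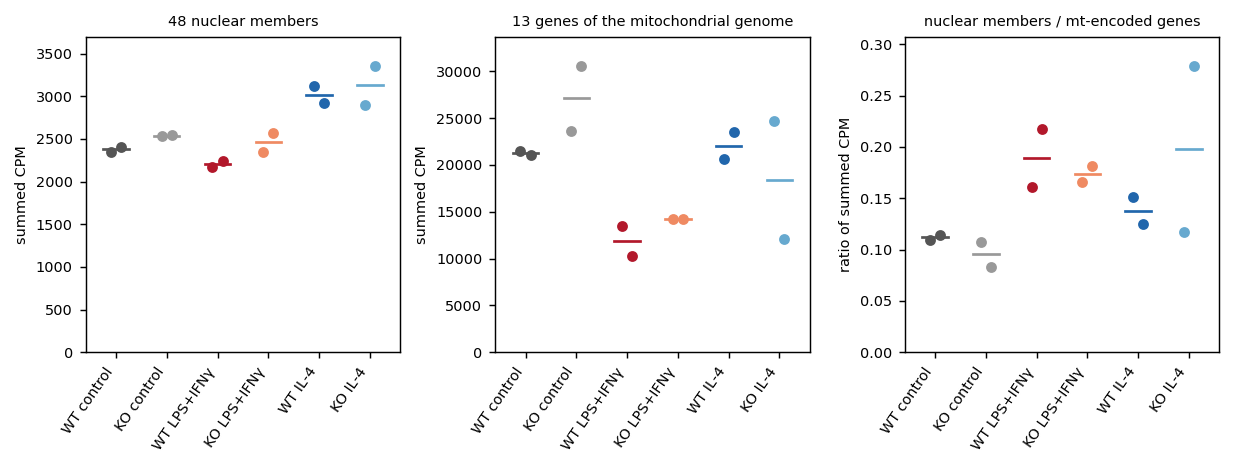
Summed CPM of the 48 nuclear members (left), of the 13 protein genes of the mitochondrial genome (middle) and their ratio (right) in each library (points), with the mean of the 2 libraries of a group (bar). The nuclear sum is highest after IL-4, the mitochondrial sum is between 10261 and 14203 CPM after LPS+IFNγ, and the KO IL-4 libraries lie far apart at 12034 and 24671 CPM.

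Of 20 assembly factors of complex IV, 8 rose and 1 fell after LPS+IFNγ in WT, and 7 rose and 2 fell in KO. For this and the lists that follow, the shares of all tested genes after LPS+IFNγ were 27.4% higher and 27% lower in WT and 27.2% and 26.1% in KO. With library totals alone, a setting tried on these lists after seeing the data, 4 rose and 5 fell in WT and 3 rose and 6 fell in KO. Sco1, which delivers copper to the oxidase, rose by 2.41 ± 0.14 and 2.29 ± 0.14 in WT and KO (edgeR adjusted p 1.45e-06 and 2.1e-06), and Coa5 by 2.35 ± 0.10 and 2.16 ± 0.10 (3.4e-07 and 4.88e-07). Cox17, a copper chaperone, rose by 1.17 ± 0.24 in WT (0.0024) and was also called higher in KO (0.000723). Of 14 complex I assembly factors 2 rose and 5 fell in each genotype, and with totals alone 8 fell in each, with 0 higher in WT and 1 in KO. In the ATP synthase 4 of 18 fell in each genotype, with 0 higher in WT and 1 in KO, and with totals alone 17 fell in WT and 16 in KO. Its inhibitor gene Atpif1 fell by 1.85 ± 0.16 and 1.59 ± 0.15 (edgeR adjusted p 9.85e-06 and 2.54e-05). Complex II, which has no subunit from the mitochondrial genome, had 2 of 4 genes higher and 1 lower in each genotype, with Sdhd at 0.69 ± 0.10 and 0.54 ± 0.10 and Sdha at -0.53 ± 0.09 and -0.47 ± 0.09, all called; with totals alone 0 were higher and 2 lower in each genotype. After IL-4, 6 of 18 ATP synthase genes rose in WT and 2 in KO, and 2 of 4 complex II genes rose in WT and 1 in KO, with 0 lower, where 4.92% of all tested genes rose in WT and 3.52% in KO. With totals alone 5 ATP synthase genes rose in WT and 1 in KO, and 1 complex II gene in each.

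Among the regulators of mitochondrial genes tested, 4 of 13 rose and 5 fell in WT after LPS+IFNγ, and 5 rose and 4 fell in KO. Under scaling by totals alone 1 rose and 8 fell in WT, and 2 rose and 8 fell in KO. Hif1a, which encodes the hypoxia-inducible factor, rose by 2.42 ± 0.22 and 2.72 ± 0.22 (edgeR adjusted p 1.65e-05 and 9.21e-06), and Myc fell, at -2.98 ± 0.43 and -3.19 ± 0.41 (0.000278 and 0.000161). Nrf1, whose motif letters are printed above, rose by 0.45 ± 0.15 and 0.44 ± 0.15 (0.0305 and 0.036), which turned to -0.047 and -0.053 with library totals alone. After IL-4, Myc rose in WT by 1.92 ± 0.35 (edgeR adjusted p 0.0119), and in KO it was at 1.07 ± 0.34 and did not pass (0.093). Of 7 mitophagy genes 2 rose and 2 fell in each genotype after LPS+IFNγ, led by Bnip3, a receptor that marks mitochondria for removal, at 3.58 ± 0.24 and 2.92 ± 0.23 (edgeR adjusted p 2.79e-06 and 7.89e-06). With totals alone 2 of the 7 rose in each genotype, and 3 fell in WT and 4 in KO.

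Between genotypes, edgeR's quasi-likelihood test called 0 of 48 members in control, after LPS+IFNγ or after IL-4, and DESeq2 also called 0 in each. Among all tested genes 0.0739%, 0.0591% and 0.0665% were called. At an unadjusted p below 0.05 there were 1, 7 and 0 of the 48 members, where 1011, 1119 and 453 of the 13525 tested genes were. Medians of KO minus WT were 0.12, 0.14 and 0.05 beside 0.01, 0.01 and 0.00 over all genes, and 39, 37 and 30 members were positive. In control the smallest p was for Ndufa11, at 0.27 ± 0.11 (edgeR adjusted p 0.666), followed by Ndufa9 (0.19 ± 0.10) and Uqcrq (0.26 ± 0.15). After LPS+IFNγ it was for Cox8a, at 0.40 ± 0.11 (0.564), followed by Cox5b (0.48 ± 0.14) and Ndufb4 (0.71 ± 0.22). After IL-4 Ndufa2 (0.50 ± 0.24), Ndufa7 (0.30 ± 0.16) and Cox6a1 (0.31 ± 0.17) came first, each with a high value in KO IL-4 library 2 alone. Tests of whether the genotypes responded differently called 0 members and 0% of all genes for both stimuli in edgeR, and 0 members in DESeq2. At an unadjusted p below 0.05 in edgeR there were 0 members, where 476 (LPS+IFNγ) and 604 (IL-4) of the 13525 tested genes were.

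Genotype also coincided with sex-linked transcripts. Xist, expressed from an inactive X chromosome, was at 232 to 618 CPM in the 6 WT libraries and had 0 counts in the 6 KO libraries, while the Y-linked Ddx3y was at 86.3 to 111 CPM in KO and 0 in WT. Genotype and sex of the cells cannot be told apart here. The X-linked members Ndufa1 and Ndufb11 differed between KO and WT by 0.13 ± 0.12 and -0.02 ± 0.14 in control, which did not pass (edgeR adjusted p 0.813 and 0.99).

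Members agreed between the 2 libraries of a group to within 1.5-fold, except 1 member, Ndufb6, in KO LPS+IFNγ and 8 members in KO IL-4. In KO IL-4 library 2, Ndufa2, Ndufa8, Ndufa13, Ndufb2, Ndufb6 and Cox6a1 were higher than in library 1 and Ndufa12 and Uqcrc2 were lower. Ndufa2, for example, was at 39.5 and 72.0 CPM in these libraries. The median rise of the members after IL-4 in KO was 0.17 without library 2 and 0.42 without library 1. Counts of some members carry a further limit, because their exons overlap another gene, on the same strand for 3 (Ndufb2, Ndufb8 and Ndufb9) and on the other strand for 15, among them Ndufb2, Ndufb11, Ndufs1 and Cox4i1. Reads shared with processed pseudogenes, which Cycs and other members are known to have, add to this.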

How the data were processed

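RNA-seq libraries of 12 macrophage samples were prepared with a directional kit, per the labels' protocols. The authors deposited 1 table of estimated counts per Ensembl gene, all whole numbers, with 0 columns of other samples. Per the submitters' processing notes FastQC 0.11.9, Salmon 1.10.2, R 4.4.1, DESeq2 1.45.3 and build GRCm39 were used; for the transcript annotation and any use of strand, the answer was not given in the sources used here. Groups came from sample titles. Identifiers were matched to symbols and GRCm38 positions from GENCODE (51425 of 55891, 92%), with none converted between builds. Transcript length was the median over principal coding transcripts.

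The counts were analysed as deposited in R 4.3.3 with edgeR 4.0.16: filterByExpr, TMM factors, all 12 libraries with 1 coefficient per group (6 residual degrees of freedom), quasi-likelihood F tests, 2-sided, Benjamini-Hochberg over 13525 genes, threshold 0.05. There were 11 comparisons: each stimulus against control and against the other in each genotype, KO against WT in each treatment, and 2 interactions. CPM used TMM-scaled library sizes. The scripts were tested on simulated data. At these depths 3 counts correspond to less than 1 CPM. Alternatives were RLE, upper-quartile and total-count scaling, no filter, DESeq2 1.42.0, fits on only the groups compared, a replicate block, and leaving out each library; total-count scaling of the pathway lists was added after seeing the data. Members and lists were chosen with earlier results of these data known. Members named were, per stimulus comparison, the 6 called with the largest change each way and those nearest a complex median; per genotype comparison, the 3 with the smallest p; and 12 always shown. Others named were chosen after their values were seen. Protein sequences were not used here. The result of 1 further gene is not reported here.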

Additional observations from a re-analysis of the deposited data

How the results depend on the processing

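Counts of members called changed by more than 1.5 times as follows. With library totals alone they were 32 (LPS+IFNγ against control, WT), 37 (KO), 2 (IL-4, WT), 1 (IL-4, KO), 42 and 42 (LPS+IFNγ against IL-4, WT and KO). The 32, 37 and 2 were 66.7%, 77.1% and 4.17% of the members, where 60.8%, 59.4% and 8.78% of all tested genes were called. With upper-quartile factors IL-4 gave 4 in WT and 1 in KO, without a low-count filter 1 in KO, and DESeq2 gave 14 in WT. In WT these were 8.33% (upper quartile) and 29.2% (DESeq2) of the members, beside 8.94% and 14.5% of all tested genes. Fits on only the groups compared gave 28 and 9 for LPS+IFNγ in WT and KO, 26 and 0 for IL-4, and 15 for LPS+IFNγ against IL-4 in KO. The 28, 9 and 26 were 58.3%, 18.8% and 54.2% of the members, where 69%, 41.4% and 27.9% of all tested genes were called. Leaving out 1 library gave 8 to 9 and 8 to 11 for LPS+IFNγ (WT, KO), 0 in every case and 0 to 11 for IL-4, 16 to 34 for LPS+IFNγ against IL-4 in KO, and 0 to 1 for KO against WT after LPS+IFNγ (1 without KO library 1). The causes were not tested.

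Complex medians moved with scaling as the median of all genes did, here as total counts and upper quartile for complexes I, III and IV. LPS+IFNγ in WT: -0.59 and -0.27, -0.70 and -0.39, -0.38 and -0.063. LPS+IFNγ in KO: -0.61 and -0.30, -0.73 and -0.42, -0.39 and -0.078. Against IL-4 in WT: -0.92 and -0.64, -1.04 and -0.76, -0.74 and -0.46. Against IL-4 in KO: -0.93 and -0.60, -1.12 and -0.79, -0.61 and -0.29. Median of members minus that of all genes stayed between -0.04 and -0.01 for LPS+IFNγ in WT, and between 0.37 and 0.38 for IL-4 in WT, over the 7 settings with all libraries. For LPS+IFNγ against IL-4 it stayed between -0.43 and -0.41 in WT and between -0.37 and -0.35 in KO. Leaving out 1 library moved medians for IL-4 in KO (I 0.16 to 0.44, III 0.20 to 0.44, IV 0.22 to 0.36), LPS+IFNγ against IL-4 in KO (I -0.61 to -0.28, III -0.71 to -0.40), KO against WT (III after LPS+IFNγ 0.089 to 0.35, I after IL-4 -0.042 to 0.19) and the interactions (III with LPS+IFNγ -0.065 to 0.19, I with IL-4 -0.17 to 0.14). Total counts reversed LPS+IFNγ differences of Cox8a in WT (-0.14), Ndufa11 in WT (-0.16) and Ndufs4 in KO (-0.077), and, in an alternative added after seeing the data, of Nrf1 in WT (-0.047) and KO (-0.053) and Cyc1 in KO (-0.058).

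Same-numbered libraries deviated together with correlations of 0.0464 to 0.337, all positive and above 0.1 in 14 of 15 pairs of groups. The summed stromal markers were higher in library 2 of every group. Because not every pair was above 0.1, the rule set for a block, the main tests used none. Whether same-numbered libraries share a source was not tested. With the replicate block, counts of members called were 14 and 18 (LPS+IFNγ), 11 and 3 (IL-4), 28 and 27 (LPS+IFNγ against IL-4) and 0 in the other comparisons. The 14, 18 and 11 were 29.2%, 37.5% and 22.9% of the members, where 56.4%, 55.4% and 11.9% of all tested genes were called. With 2 libraries a group, changes smaller than those called may go undetected.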

Other observations

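Of 10 nuclear genes for subunits of the same complexes outside the 48 members, 1 rose and 1 fell in WT after LPS+IFNγ, and 2 rose and 1 fell in KO, where 27.4% of all tested genes rose and 27% fell in WT and 27.2% and 26.1% in KO. With library totals alone 8 fell in WT, 7 fell in KO and 0 rose. Ndufb1, an accessory subunit of complex I (matched by the identifier ENSMUSG00000113902, which the Ensembl names used here list as Ndufb1-ps and the RefSeq table as the protein-coding gene Ndufb1), rose by 0.84 ± 0.14 in WT and 0.69 ± 0.14 in KO (edgeR's quasi-likelihood test, adjusted p 0.000713 and 0.00224), from 20.7 to 26.1 CPM in control to 39.6 to 44.6 CPM. Uqcr11, a small subunit of complex III, fell by 0.71 ± 0.14 in WT and 0.68 ± 0.14 in KO (0.00171 and 0.00217). Cyc1, cytochrome c1 of complex III, rose after IL-4 in both genotypes, by 0.47 ± 0.11 and 0.61 ± 0.11 (edgeR adjusted p 0.033 and 0.0147), and after LPS+IFNγ in KO by 0.44 ± 0.11 (0.00862), the last turning to -0.058 with library totals alone. Of the coactivators of these genes, Ppargc1b was called higher after LPS+IFNγ in both genotypes (1.11 ± 0.41 and 1.25 ± 0.42, edgeR adjusted p 0.044 and 0.0303). It was at 3.10 to 8.11 CPM there, overlapping the 2.00 to 3.45 CPM of control, and at 5.16 to 8.36 CPM after IL-4, wholly above control. Ppargc1a did not have enough counts to be tested. Esrra, an orphan nuclear receptor, was called higher after LPS+IFNγ in both genotypes (1.14 ± 0.40 and 2.25 ± 0.42, 0.0353 and 0.00149). With library totals alone the rises of Ndufb1 and Ppargc1b after LPS+IFNγ, and that of Esrra in WT, stayed positive and were no longer called.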
